A study of Mus musculus with 6 samples.

Results

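The mRNAs of 9 costimulatory receptors of CD8+ T cells were followed between TEff and TRM-like cells. The members are the CD28-family receptors CD28 and ICOS and the tumor necrosis factor (TNF) receptor family members CD27, 4-1BB (*Tnfrsf9*), OX40 (*Tnfrsf4*), GITR (*Tnfrsf18*), TNFR2 (*Tnfrsf1b*), DR3 (*Tnfrsf25*), and HVEM (*Tnfrsf14*). They were chosen by name as a receptor group, with earlier results of these data known, and all 9 were found among the 57126 genes of the count table. Both groups were CD8+ T cells from the lymph nodes and spleens of OT-I mice, whose transgenic receptor recognizes an ovalbumin peptide. All cells were cultured with nano-aAPCs, nanoparticles that carry the peptide on an MHC class I molecule beside an anti-CD28 antibody, and were harvested on day 6. By the study's methods, the 3 TEff samples were grown with IL-2, and the 3 TRM-like samples with TGF-β and IL-15 beside IL-2, so that the effects of IL-15 and TGF-β cannot be told apart. The labels do not say whether replicates came from separate mice or cultures, and the p-values measure the spread between these samples, which may be technical.

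A T cell that meets antigen needs a second signal, and costimulatory receptors supply it. CD28 binds CD80 and CD86 and ICOS binds ICOS ligand, and both recruit phosphoinositide 3-kinase through their tails. The TNF receptor family members bind trimeric ligands, recruit TRAF adaptors, and activate NF-κB, which favors survival and memory of CD8+ T cells. CD28, CD27, and HVEM are present on resting T cells, whereas ICOS, 4-1BB, and OX40 are induced by activation.

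Between 18319013 and 23622621 reads per sample were counted on genes. TRM-like replicate 3 stood apart: its root mean square difference from TRM-like replicates 1 and 2 was 0.643 and 0.649 in log2 CPM over 14822 genes, against 0.273 between those samples and 0.235 to 0.388 among the TEff samples. TRM-like replicate 3 was nearer to TEff replicates 1 and 3, at 0.524 and 0.516, and was at 0.652 from TEff replicate 2. TRM-like replicates 1 and 2 also had at least 1 count on 35130 and 35559 genes, against 24229 to 24908 in the other samples, so values of a few counts in those libraries need care. The tests of the members and of the pathway genes named beside them are therefore given with and without TRM-like replicate 3. The fits without it rest on TRM-like replicates 1 and 2, the samples with more genes counted, so neither fit is taken as the cleaner one. All 6 CD8+ T cell markers (*Cd3d*, *Cd3e*, *Cd3g*, *Cd8a*, *Cd8b1*, and *Trac*) were expressed, with a summed level of 2013 to 2154 CPM in the TEff and 2579 to 3713 CPM in the TRM-like samples. *Cd4* had 0 to 2 counts and *Foxp3* 6 to 29, while the 3 CD4+ and regulatory T cell markers summed to 35.9 to 53.2 CPM in the TEff and 33.98 to 109 CPM in the TRM-like samples, nearly all from *Ikzf2*. The 4 B cell markers used (*Ms4a1*, *Cd79a*, *Cd79b*, and *Pax5*) summed to 5.72 to 6.78 and 7.29 to 10.8 CPM, with *Ms4a1* at 0 to 2 counts. Most of this sum came from *Cd79b*, at 100, 94, and 97 counts in the TEff and 148, 192, and 139 in the TRM-like replicates. The 9 myeloid and dendritic cell markers summed to 6.08 to 7.80 and 2.67 to 6.72 CPM, most of it from *Zbtb46*, with *Lyz2* at 0 counts in 5 samples and at 14 in TRM-like replicate 2. The 3 NK cell markers summed to 9.83 to 22.0 and 0.0922 to 8.94 CPM, with *Ncr1* at 0 to 6 counts. Nearly all of this sum came from *Klrb1c*, at 214, 433, and 214 counts in the TEff and 196, 153, and 2 in the TRM-like replicates. The 4 erythroid markers had at most 1 count in any sample. The CD8+ T cell, B cell, and NK cell sums thus did not overlap between the groups, with *Cd8a* at 436 ± 13.4 CPM in the TEff and 963 ± 32.4 CPM in the TRM-like samples (SD, n = 3, edgeR adjusted p = 0.00220), and their part in the results was not tested.

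*Icos*, *Tnfrsf25*, and *Tnfrsf1b* differed between the groups. *Icos* and *Tnfrsf25* were lower and *Tnfrsf1b* was higher in the TRM-like cells, while *Cd28*, *Cd27*, *Tnfrsf9*, *Tnfrsf4*, *Tnfrsf18*, and *Tnfrsf14* did not pass the test. The test was edgeR's quasi-likelihood test over 26154 genes with Benjamini-Hochberg adjustment, and a gene passed where its adjusted p was under 0.05 and its log2 fold change lay beyond 0.58 in either direction. By it, 1 of the 9 members was higher and 2 were lower, where 3.01% of all genes tested were called in either direction, 1.52% higher and 1.48% lower, and 3.97% of the 14822 genes whose count was 10 or more in each sample. Levels are given as CPM, the count scaled to the TMM-adjusted library size, and in these bulk samples fewer cells that use a gene and less of its RNA per cell cannot be told apart. In 7 members the 3 TRM-like samples did not overlap the 3 TEff samples, 3 of them higher and 4 lower, against 20.3% of all genes tested (10.6% higher and 9.71% lower) and 22.9% of those 14822 genes. Because the members were chosen with earlier results of these data known, these shares are not a test of the group. The median log2 fold change of the 9 members, which is that of *Cd27*, was -0.48 and without TRM-like replicate 3 -0.27, against 0.02 over all genes tested in both fits. Without TRM-like replicate 3, 1 member was higher (*Tnfrsf1b*) and 3 were lower (*Icos*, *Tnfrsf25*, and *Tnfrsf4*), with 14.0% of all genes called, 6.38% higher and 7.67% lower.

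**Figure D1:**
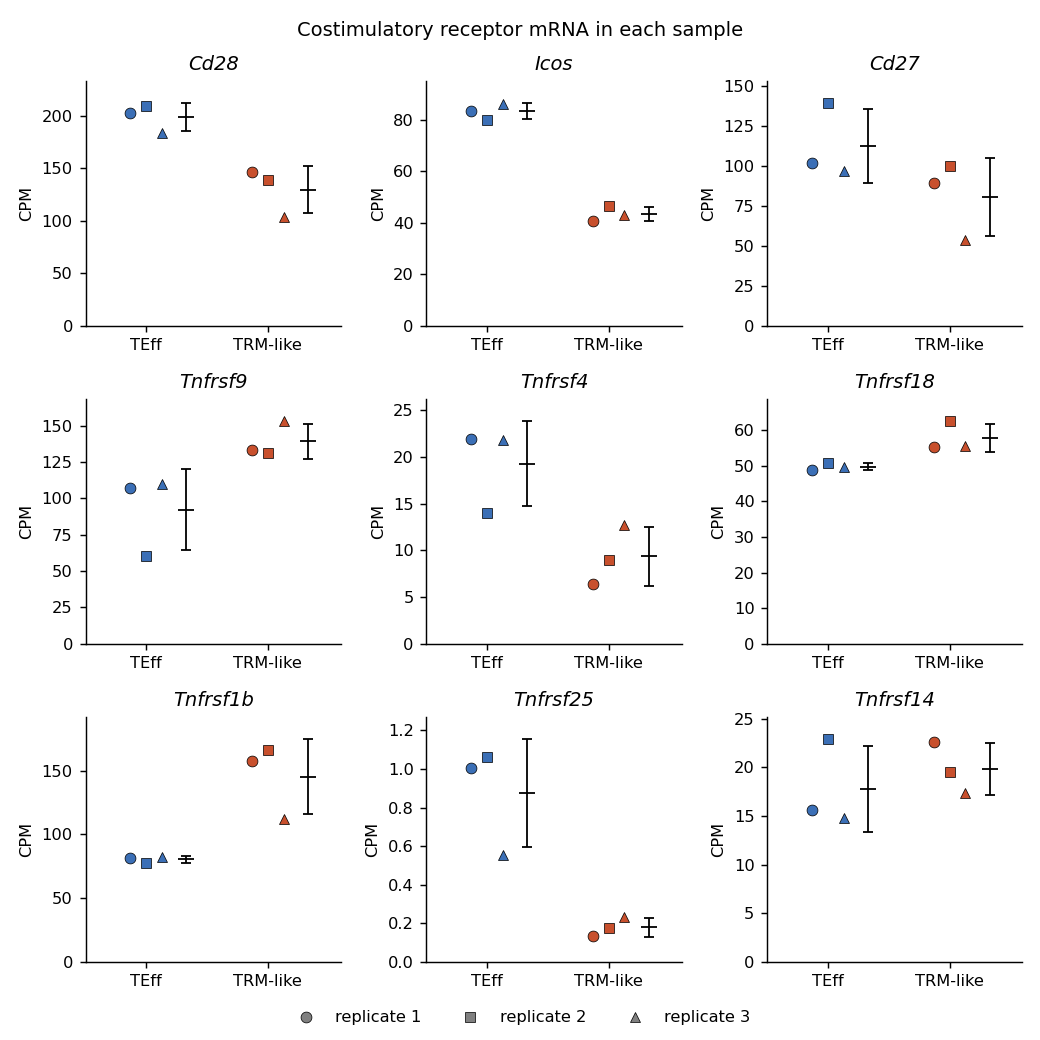
CPM (counts scaled to the TMM-adjusted library size, linear axes from 0) of the 9 receptors in the 3 TEff (blue) and 3 TRM-like (red) samples, with the symbol giving the replicate and the black bar the mean and SD of the group (n = 3). *Icos* sat at 80.1 to 86.4 CPM in the TEff and 40.9 to 46.4 CPM in the TRM-like samples, while the groups overlapped for *Cd27* and *Tnfrsf14*.

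Of the CD28-family members *Icos* and *Cd28*, *Icos*, the inducible receptor that sustains phosphoinositide 3-kinase signaling after priming, had the tighter difference. It was at 83.6, 80.1, and 86.4 CPM in TEff replicates 1, 2, and 3 and at 40.9, 46.4, and 43.1 CPM in TRM-like replicates 1, 2, and 3. Every TRM-like sample, replicate 3 included, was near the same level and far below the lowest TEff sample. The mean fell from 83.3 ± 3.15 to 43.4 ± 2.78 CPM (SD, n = 3 per group), a 1.92-fold lower level (log2 fold change -0.94, standard error 0.12, edgeR adjusted p = 0.00408). *Icos* was past the threshold in all 15 alternative fits, with log2 fold changes between -0.99 and -0.90, and without TRM-like replicate 3 it was at -0.94 (edgeR adjusted p = 6.17e-05).

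*Cd28* encodes the receptor that the anti-CD28 antibody on the nano-aAPCs engages. It was at 203, 210, and 184 CPM in the TEff replicates and at 146, 139, and 104 CPM in the TRM-like replicates. The groups did not overlap, and TRM-like replicate 3 was the lowest sample. The log2 fold change was -0.62 (standard error 0.16, 95% interval -0.98 to -0.26) and missed the threshold (edgeR adjusted p = 0.0881). Without TRM-like replicate 3 the adjusted p from edgeR was 0.00626, but the log2 fold change of -0.49 was then within 0.58.

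*Cd28* and *Icos* lie in the same direction on chromosome 1 of GRCm39, *Cd28* at chr1:60755959-60812518 and *Icos* at chr1:61017086-61039479, with 1 protein-coding gene, *Ctla4*, between them. The 3 genes have related sequences of the CD28 family. The 250 bases before the start of the canonical *Icos* transcript (GENCODE M39, plus strand, chr1:61016836-61017085) are shown because *Icos* had the firmest difference of the 9 members. They hold no match to the motifs searched below.
Icos: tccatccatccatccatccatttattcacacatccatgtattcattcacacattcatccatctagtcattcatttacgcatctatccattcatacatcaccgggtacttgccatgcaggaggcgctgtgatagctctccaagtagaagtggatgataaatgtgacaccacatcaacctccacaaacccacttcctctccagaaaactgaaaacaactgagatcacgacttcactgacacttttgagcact
The searched motifs were AP-1 (TGANTCA), the SMAD box (CAGAC), and the NF-κB site, each on both strands and none overlapping another in these windows. In the 250 bases before the start of 21770 protein-coding genes, 6.17% held an AP-1 match, 41.3% a SMAD box, and 4.23% an NF-κB match. Of the 9 members, 1 held an AP-1 match (*Tnfrsf9*), 5 a SMAD box (*Cd27*, *Tnfrsf9*, *Tnfrsf1b*, *Tnfrsf25*, and *Tnfrsf14*), and 1 an NF-κB match (*Tnfrsf9*).

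Among the TNF receptor family, *Tnfrsf1b* was the member that rose. It encodes TNFR2, the TNF receptor without a death domain that costimulates T cells. It was at 81.2, 77.3, and 82.4 CPM in the TEff replicates and at 158, 166, and 112 CPM in the TRM-like replicates. All TRM-like samples were above all TEff samples, and TRM-like replicate 3 lay between the TEff samples and the other TRM-like samples. The mean rose from 80.3 ± 2.69 to 145 ± 29.2 CPM (SD, n = 3 per group), 1.81-fold (log2 fold change 0.86, standard error 0.17, edgeR adjusted p = 0.0279). Without TRM-like replicate 3 the log2 fold change was 1.00 (edgeR adjusted p = 1.63e-05). The call was lost without any 1 of the other 5 samples (edgeR adjusted p = 0.161, 0.135, and 0.144 without TEff replicates 1, 2, and 3 and 0.104 and 0.109 without TRM-like replicates 1 and 2), at log2 fold changes of 0.74 to 0.89. *Tnfrsf1b* spans chr4:144938938-144973477 on the minus strand, and 184 of its 4950 exon bases are shared with an antisense gene (Gm68886) of the later annotation that the count table does not list.

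*Tnfrsf25*, which encodes DR3, a receptor for TL1A with a death domain, was the lowest member. Its counts were 22, 21, and 10 in the TEff replicates and 3, 4, and 5 in the TRM-like replicates, which is 1.01, 1.06, and 0.55 CPM against 0.13, 0.17, and 0.23 CPM. The groups did not overlap, though all values were a few reads deep. The log2 fold change was -2.27 (standard error 0.46, edgeR adjusted p = 0.0341), and without TRM-like replicate 3 it was -2.49 (edgeR adjusted p = 0.00540). Over the summed counts of 53 and 12, the TEff level was 4.99 times the TRM-like level, with an exact 95% interval of 2.63 to 10.3 that covers counting error only. The call was lost without any 1 of TEff replicates 1, 2, and 3 (edgeR adjusted p = 0.178, 0.143, and 0.0633) or TRM-like replicates 1 and 2 (0.118 and 0.123). *Tnfrsf25* lies at chr4:152200391-152205299 on the plus strand, and 512 of its 3000 exon bases are also exon of *Espn* on the other strand. *Espn* had 60, 40, and 39 counts in the TEff and 31, 41, and 20 in the TRM-like replicates, and because the strand setting of the counting is not stated, reads of the 2 genes cannot be told apart in the shared part.

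*Tnfrsf9* encodes 4-1BB, an activation-induced receptor that promotes the survival of CD8+ T cells. It was at 107, 60.0, and 110 CPM in the TEff replicates and at 133, 131, and 153 CPM in the TRM-like replicates. The groups did not overlap, with TEff replicate 2 far below the other TEff samples. The log2 fold change was 0.59 (standard error 0.22, 95% interval 0.09 to 1.09) and did not pass (edgeR adjusted p = 0.251). Without TEff replicate 2 it was 0.36, and without TRM-like replicate 3 it was 0.51 (edgeR adjusted p = 0.0880). *Tnfrsf9* was the one member with an NF-κB match before its canonical start, where it also held an AP-1 match at -15 to -9 and a SMAD box at -185 to -181. The site lies in chr4:151012404-151012433 of GRCm39 (plus strand, -52 to -23 from the canonical start), within the gene's annotated span of chr4:150999019-151030559. It is shown because 4-1BB both activates NF-κB and had this motif, with capitals marking 2 overlapping matches at -43 to -33.
Tnfrsf9: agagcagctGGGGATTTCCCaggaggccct
The match is a description of these letters, and binding was not measured.

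*Tnfrsf4* and *Tnfrsf18* are neighbors on chromosome 4, and neither passed the test. *Tnfrsf4* encodes OX40, which prolongs the response of activated T cells, and *Tnfrsf18* encodes GITR, which costimulates activated T cells. They lie at chr4:156098293-156101069 and chr4:156110621-156113352, both on the plus strand, 9551 bases apart with 0 protein-coding genes between them. *Tnfrsf4* was at 22.0, 14.0, and 21.8 CPM in the TEff replicates and at 6.41, 8.999, and 12.7 CPM in the TRM-like replicates. The groups did not overlap, but the highest TRM-like sample, replicate 3, was close to the lowest TEff sample, replicate 2. The log2 fold change was -1.04 (standard error 0.27, 95% interval -1.65 to -0.43), not past the threshold (edgeR adjusted p = 0.0881), and without TRM-like replicate 3 it was -1.33 and past it (edgeR adjusted p = 0.000578).

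*Tnfrsf18* was at 48.9, 50.9, and 49.6 CPM in the TEff replicates and at 55.4, 62.6, and 55.7 CPM in the TRM-like replicates. All TRM-like samples were higher, by little. The log2 fold change was 0.22 (95% interval -0.05 to 0.49, edgeR adjusted p = 0.469) and, without TRM-like replicate 3, 0.23 (edgeR adjusted p = 0.146), where the interval over 6 samples excludes a change past the 0.58 threshold in either direction. Of its 1524 exon bases, 547 are shared with the antisense gene Gm16008, which had 58 to 91 counts where *Tnfrsf18* had 898 to 1432. The sequences before the canonical starts of the neighbors are shown for comparison, 225 bases at chr4:156098068-156098292 and 250 bases at chr4:156110371-156110620, and neither window held a match to the searched motifs.
Tnfrsf4: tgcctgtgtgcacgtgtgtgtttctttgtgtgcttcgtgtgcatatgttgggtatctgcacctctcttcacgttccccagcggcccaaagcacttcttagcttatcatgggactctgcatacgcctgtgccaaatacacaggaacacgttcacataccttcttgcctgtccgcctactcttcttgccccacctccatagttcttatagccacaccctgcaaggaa
Tnfrsf18: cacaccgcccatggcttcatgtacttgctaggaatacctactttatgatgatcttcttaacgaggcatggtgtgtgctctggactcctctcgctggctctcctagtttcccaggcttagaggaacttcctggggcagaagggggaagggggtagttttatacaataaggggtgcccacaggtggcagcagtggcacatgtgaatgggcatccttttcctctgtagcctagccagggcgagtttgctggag
Within each library the *Tnfrsf4* to *Tnfrsf18* ratio of RPKM (CPM per kilobase of gene) was 0.550, 0.337, and 0.538 in the TEff replicates and 0.142, 0.176, and 0.280 in the TRM-like replicates. The ratios of the groups did not overlap, and the log2 ratio was lower by -1.28 in the TRM-like cells (exact two-sided permutation test, p = 0.1, the smallest that 3 against 3 samples allow, adjusted p = 0.133 over 4 ratios), and by -1.55 without TRM-like replicate 3.

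*Cd27* and *Tnfrsf14* had overlapping groups. *Cd27*, whose product binds CD70 and supports the survival of primed T cells, was at 102, 139, and 96.8 CPM in the TEff replicates and at 88.8, 99.5, and 53.2 CPM in the TRM-like replicates. TRM-like replicate 3 was the lowest sample, and the log2 fold change moved from -0.48 (95% interval -1.02 to 0.06, edgeR adjusted p = 0.409) to -0.27 without it (edgeR adjusted p = 0.238). *Tnfrsf14*, which encodes HVEM, a partner of LIGHT and of the inhibitory receptors BTLA and CD160, was at 15.6, 22.9, and 14.8 CPM in the TEff replicates and at 22.6, 19.5, and 17.3 CPM in the TRM-like replicates. Its log2 fold change was 0.16 (95% interval -0.29 to 0.60, edgeR adjusted p = 0.772) and, without TRM-like replicate 3, 0.24 (edgeR adjusted p = 0.383). *Cd27* lies at chr6:125209585-125213988 and *Tnfrsf14* at chr4:155005126-155013020, both on the minus strand. With *Tnfrsf1b*, *Tnfrsf9*, *Tnfrsf25*, *Tnfrsf4*, and *Tnfrsf18*, *Tnfrsf14* belongs to the 6 members on chromosome 4, which hold members that rose, fell, and did not pass the test.

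**Figure D2:**
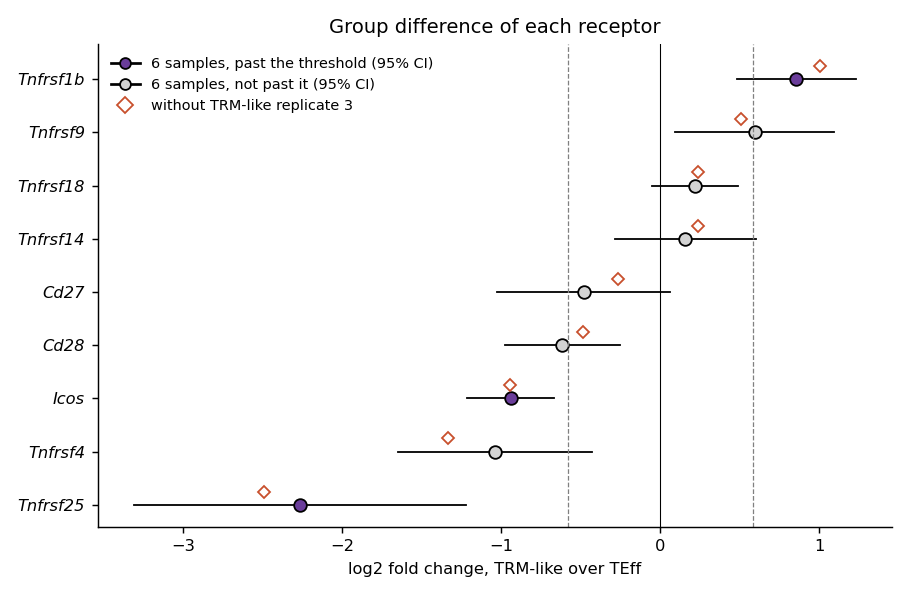
Log2 fold change of TRM-like over TEff for each receptor, as the edgeR estimate with its 95% interval (circles, purple where past the threshold) and without TRM-like replicate 3 (open diamonds), with dashed lines at -0.58 and 0.58. The estimates ran from -2.27 (*Tnfrsf25*) to 0.86 (*Tnfrsf1b*), and every diamond lay on the same side of 0 as its circle.

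The order of the receptors by level was compared per length, as RPKM. In the TEff cells *Cd27* was highest at 72.1 ± 14.8 RPKM (SD, n = 3), then *Cd28* at 45.8 ± 3.05, *Tnfrsf18* at 39.5 ± 0.785, *Tnfrsf9* at 37.1 ± 11.2, *Icos* at 24.3 ± 0.918, *Tnfrsf1b* at 21.0 ± 0.705, *Tnfrsf4* at 18.7 ± 4.42, *Tnfrsf14* at 13.7 ± 3.42, and *Tnfrsf25* at 0.459 ± 0.147. Among neighbors in this order, the ranges of *Tnfrsf18* and *Tnfrsf9*, *Tnfrsf9* and *Icos*, *Tnfrsf1b* and *Tnfrsf4*, and *Tnfrsf4* and *Tnfrsf14* overlapped. Within each TEff library *Tnfrsf9* was nonetheless above *Icos*, whereas the other pairs changed order between samples. In the TRM-like cells *Tnfrsf9* was highest at 56.0 ± 4.85 RPKM, then *Cd27* at 51.6 ± 15.5, *Tnfrsf18* at 45.9 ± 3.23, *Tnfrsf1b* at 38.1 ± 7.65, *Cd28* at 29.9 ± 5.23, *Tnfrsf14* at 15.3 ± 2.05, *Icos* at 12.7 ± 0.812, *Tnfrsf4* at 9.11 ± 3.08, and *Tnfrsf25* at 0.0939 ± 0.0263. Here, among neighbors, the range of *Tnfrsf9* overlapped that of *Cd27*, *Cd27* overlapped *Tnfrsf18*, *Tnfrsf1b* overlapped *Cd28*, *Tnfrsf14* overlapped *Icos*, and *Icos* overlapped *Tnfrsf4*. Within each TRM-like library *Tnfrsf1b* was above *Cd28*, *Tnfrsf14* above *Icos*, and *Icos* above *Tnfrsf4*, and the other pairs changed order. The order of neighbors was not tested. Receptors further apart could also overlap, as *Cd28* and *Tnfrsf9* did in the TEff samples and *Cd27* and *Tnfrsf1b* in the TRM-like samples. Over TRM-like replicates 1 and 2 alone the order was the same but for *Cd27*, at a mean of 60.4 RPKM, which then lay above *Tnfrsf9*, at 53.2 RPKM.

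The summed RPKM of the 9 receptors was 268 to 277 in the TEff and 231 to 279 in the TRM-like samples, which overlapped, while its makeup differed. *Cd28* and *Icos* gave 15.8% to 17.4% and 8.42% to 9.41% of the sum in the TEff samples and 10.3% to 12.7% and 4.49% to 5.42% in the TRM-like samples. *Tnfrsf1b* gave 7.30% to 8.06% and 12.7% to 15.6%, and *Tnfrsf9* gave 8.71% to 16.5% and 18.9% to 26.6%. For these 4 receptors, no share of a TRM-like sample lay within the TEff range. The same held for *Cd27* (23.2% to 32.1% and 14.7% to 22.9%), *Tnfrsf18* (14.2% to 14.7% and 16.6% to 19.1%), and the very low *Tnfrsf25*, but not for *Tnfrsf4* and *Tnfrsf14*. Shares of a single sum depend on each other, so they are not separate results. No share over other genes was computed for comparison.

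**Figure D3:**
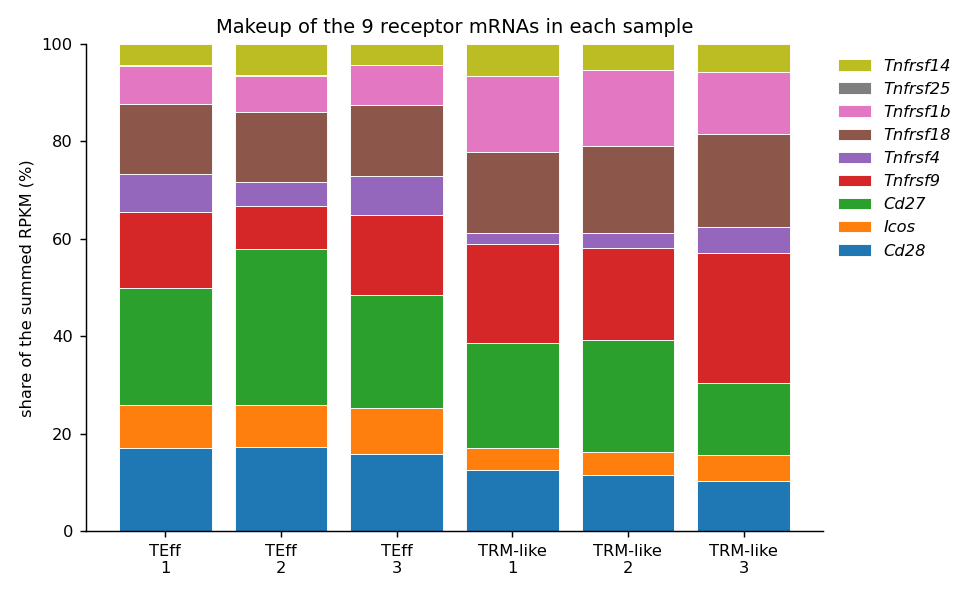
Share of each receptor in the summed RPKM of the 9 receptors (linear axis, 0 to 100%), one bar per sample. *Cd28* and *Icos*, at the foot of the bars, took smaller shares in the TRM-like samples, and *Tnfrsf1b*, *Tnfrsf9*, and *Tnfrsf18* larger ones.

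The inhibitory receptors that share a ligand with a member all passed the test, where 3.01% of all genes tested did (14.0% without TRM-like replicate 3). They were chosen with earlier results of these data known. *Ctla4*, which competes with CD28 for CD80 and CD86, fell from 219 ± 21.5 to 97.0 ± 8.46 CPM, and *Btla* fell from 75.9 ± 7.997 to 33.03 ± 2.42 CPM, whereas *Cd160* rose from 52.0 ± 3.96 to 149 ± 66.5 CPM (SD, n = 3 per group). *Cd160* was at 180 and 194 CPM in TRM-like replicates 1 and 2 and at 72.3 CPM in replicate 3, above the 48.8 to 56.4 CPM of the TEff samples (log2 fold change 1.51, edgeR adjusted p = 0.0393), but was not past the threshold without any 1 of the other 5 samples or by limma-voom (limma adjusted p = 0.0739). All 3 were past the threshold without TRM-like replicate 3, at log2 fold changes of -1.15 for *Ctla4*, -1.21 for *Btla*, and 1.84 for *Cd160*.

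Ratios within a library do not depend on how libraries are scaled. The ratios here and above are made from the same values as the tests of their genes, so they are not separate results. No share over other gene pairs was computed for comparison. The *Cd28* to *Ctla4* ratio of RPKM was 0.431, 0.383, and 0.401 in the TEff replicates and 0.708, 0.5801, and 0.501 in the TRM-like replicates. The groups did not overlap, and the log2 ratio was higher by 0.55 in the TRM-like cells (exact two-sided permutation test, p = 0.1, adjusted p = 0.133), and by 0.66 without TRM-like replicate 3. The *Tnfrsf14* to *Btla* ratio was 0.498, 0.699, and 0.555 in the TEff and 1.598, 1.59, and 1.32 in the TRM-like replicates, which again did not overlap, and the log2 ratio was higher by 1.37 (exact permutation test, p = 0.1, adjusted p = 0.133), and by 1.46 without TRM-like replicate 3. The *Cd28* to *Icos* ratio was 1.92, 2.07, and 1.68 in the TEff and 2.83, 2.37, and 1.90 in the TRM-like replicates. TRM-like replicate 3 lay within the TEff range, and the difference of 0.31 was not detectable (exact permutation test, p = 0.3, adjusted p = 0.3). It was 0.46 without TRM-like replicate 3.

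**Figure D4:**
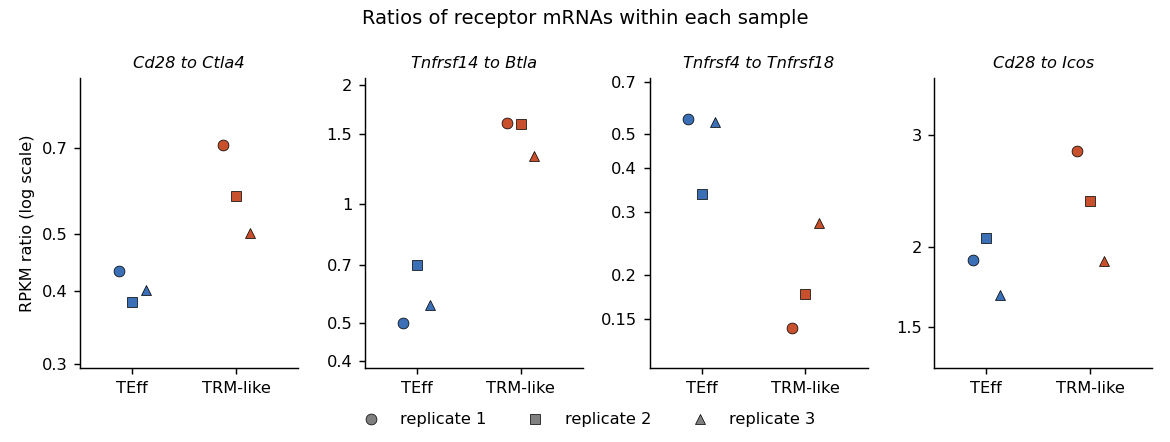
Ratios of RPKM between pairs of receptor mRNAs within each sample, on log axes, with the symbol giving the replicate. The TEff (blue) and TRM-like (red) samples were apart for *Cd28* to *Ctla4*, *Tnfrsf14* to *Btla*, and *Tnfrsf4* to *Tnfrsf18*, and overlapped for *Cd28* to *Icos*.

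Of the 11 ligands of the 9 receptors, 9 were tested, and *Icosl* was the one past the threshold. Of all genes tested, 3.01% were called, 14.0% were called without TRM-like replicate 3, and 20.3% had groups that did not overlap. *Icosl*, the ligand of ICOS, had 115, 102, and 102 counts in the TEff replicates and 323, 306, and 267 in the TRM-like replicates. It rose from 5.35 ± 0.250 to 13.3 ± 0.893 CPM (SD, n = 3 per group, log2 fold change 1.31, standard error 0.15, edgeR adjusted p = 0.00242) and without TRM-like replicate 3 had a log2 fold change of 1.35, so that the receptor *Icos* and its ligand moved in opposite directions in the same samples. *Cd80* was at 22.5, 27.0, and 23.9 CPM in the TEff and at 15.5, 14.9, and 9.45 CPM in the TRM-like replicates, which did not overlap (log2 fold change -0.88, edgeR adjusted p = 0.0535), and without TRM-like replicate 3 it was past the threshold (-0.69, edgeR adjusted p = 0.00178). *Cd70* and *Tnfsf18*, the ligands of CD27 and GITR, had at most 1 count in any sample and were not tested. *Tnf*, the ligand of TNFR1 and TNFR2, was at 50.1 to 72.1 CPM in the TEff and 73.0 to 109 CPM in the TRM-like samples (log2 fold change 0.43, edgeR adjusted p = 0.366). Without TRM-like replicate 3 its log2 fold change was 0.22 (edgeR adjusted p = 0.332). *Cd80*, *Cd70*, *Tnfsf18*, and *Tnf* were named after their values were seen.

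Of 48 signaling genes downstream of the receptors, 1 passed the test (2.08%), a share near the 3.01% of all genes tested, and 4 passed it without TRM-like replicate 3 (8.33%, against 14.0%). Of 18 transducers of CD28 and ICOS, 1 was higher, *Fyn*, a Src family kinase, which rose from 110 ± 15.4 to 193 ± 26.9 CPM (log2 fold change 0.81, edgeR adjusted p = 0.0313), though not past the threshold without any 1 of TEff replicates 1, 2, and 3 or TRM-like replicates 1 and 2. Its log2 fold change without TRM-like replicate 3 was 0.91, past the threshold. Of 16 TNF receptor transducers, 0 passed edgeR's test, and the smallest p was that of *Tradd* (log2 fold change 0.30, edgeR adjusted p = 0.319, and 0.33 without TRM-like replicate 3). Of 14 NF-κB subunits and feedback inhibitors, 0 passed edgeR's test, and the smallest p was that of *Rela* (log2 fold change 0.44, edgeR adjusted p = 0.228, and 0.57 without TRM-like replicate 3). In each of the 2 lists 1 gene had an unadjusted edgeR p below 0.05, and DESeq2 and limma-voom called 0 genes. The medians of the 3 lists were -0.02, 0.10, and 0.04 on the log2 scale, against 0.02 over all genes tested. Without TRM-like replicate 3, 2 genes of the NF-κB list were past the threshold, *Relb* (log2 fold change 0.72, against 0.39 over 6 samples) and *Nfkbie* (1.04, against 0.72). In the CD28 and ICOS list *Prkcq* was then past it and lower (log2 fold change -0.64, edgeR adjusted p = 0.000841), against -0.54 over 6 samples (edgeR adjusted p = 0.0847). *Relb*, *Nfkbie*, and *Prkcq* were chosen after their values were seen. *Relb* and *Nfkbie* were lower in TRM-like replicate 3, at 9.27 and 15.4 CPM, than in TRM-like replicate 1, at 24.0 and 40.1 CPM.

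Other TNF receptor superfamily genes were mostly low. Of 21 listed, 18 were tested, 2 were higher and 1 was lower, where 3.01% of all genes tested were called (14.0% without TRM-like replicate 3). *Tnfrsf13c*, which encodes the BAFF receptor, rose from 4.54 ± 0.313 to 9.82 ± 1.36 CPM (log2 fold change 1.11, edgeR adjusted p = 0.0113). *Tnfrsf11a*, which encodes RANK, had 0 counts in each TEff sample and 15, 10, and 16 in the TRM-like replicates, at least 4.02-fold higher on a floor of 3 counts per TEff library (edgeR adjusted p = 0.0150). With 0 TEff counts, *Tnfrsf11a* met the filter for testing only through the TRM-like samples, where it was high, so its call needs care. *Tnfrsf11b*, which encodes osteoprotegerin, a soluble receptor for RANK ligand, fell from 26, 24, and 14 counts to 1, 3, and 5 counts (edgeR adjusted p = 0.0184), a ratio of 8.04 over the summed counts with an exact 95% interval of 3.98 to 18.4 for counting error only. *Tnfrsf13c* and *Tnfrsf11b* were not past the threshold without any 1 of TEff replicates 1, 2, and 3 or without TRM-like replicate 2, nor was *Tnfrsf11a* without any 1 TEff sample (edgeR adjusted p = 0.0553 to 0.0639), and it was not tested with a TRM-like sample left out. Without TRM-like replicate 3 the log2 fold changes of *Tnfrsf13c* and *Tnfrsf11b* were 1.18 and -3.53, both past the threshold.

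Other costimulatory or accessory receptors moved in both directions. Of 10 listed, 9 were tested, 3 were higher and 2 were lower, where 3.01% of all genes tested were called (14.0% without TRM-like replicate 3). The list was chosen with earlier results of these data known. *Cd244a*, a SLAM family receptor that binds CD48, rose from 14.1, 20.8, and 19.5 CPM in the TEff replicates to 120, 110, and 60.5 CPM in the TRM-like replicates (log2 fold change 2.42, standard error 0.27, edgeR adjusted p = 0.00198). *Cd96*, a receptor for CD155, rose from 181 ± 7.75 to 504 ± 161 CPM (SD, n = 3, log2 fold change 1.48, edgeR adjusted p = 0.0107), but not past the threshold without any 1 of the TEff samples. *Slamf1*, a receptor that binds itself, fell from 17.3 ± 1.77 to 8.41 ± 0.483 CPM (SD, n = 3, log2 fold change -1.04, edgeR adjusted p = 0.00643), and lost the threshold without TEff replicate 1 (edgeR adjusted p = 0.0649). The others past it, named after their values were seen, were *Cd226*, which shares CD155 with *Cd96* and rose from 51.3 ± 12.4 to 145 ± 54.5 CPM (SD, n = 3, edgeR adjusted p = 0.0306), and *Cd5*, which dampens receptor signaling (log2 fold change -0.88, edgeR adjusted p = 0.0132). *Cd226* was not past it without any 1 of the 5 samples other than TRM-like replicate 3, nor was *Cd5* without any 1 of the TEff samples or TRM-like replicate 1. All 5 were past the threshold without TRM-like replicate 3, at log2 fold changes of 2.66 for *Cd244a*, 1.71 for *Cd96*, 1.77 for *Cd226*, -1.09 for *Slamf1*, and -0.78 for *Cd5*.

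**Figure D5:**
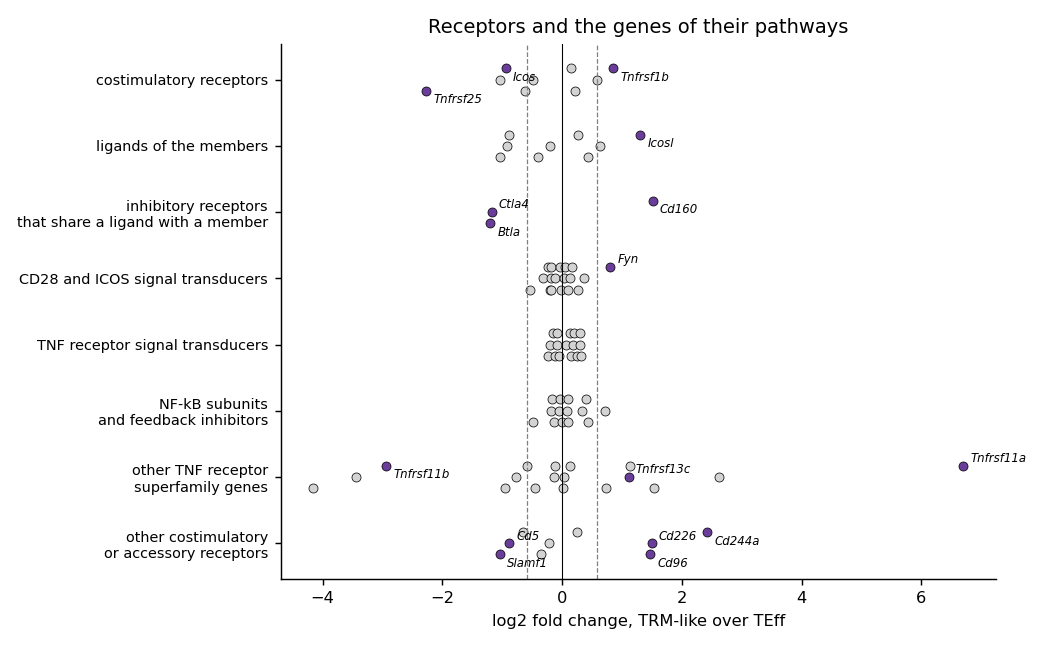
Log2 fold change of TRM-like over TEff for the receptors and the tested genes of each pathway list, one point per gene, purple and named where past the threshold, with dashed lines at -0.58 and 0.58 and points spread vertically for legibility. The transducers and NF-κB genes clustered near 0, and the position of *Tnfrsf11a* depends on the prior count of the fit because its TEff counts were 0.

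The genes whose pattern over the 6 samples was most like that of a called member were found by the root mean square distance of centred log2 CPM among the 14822 genes whose count was 10 or more in each sample. For *Icos* they were Gm49774 (0.0568), 2810414N06Rik (0.0637), and *Rragb* (0.0779), and for *Tnfrsf1b* they were *Exoc3* (0.0462), *Tmem9b* (0.0575), and *Casp6* (0.0579). Gm49774 had only 21 to 48 counts per sample and 2810414N06Rik 10 to 22, so their likeness needs care. Gm49774, 2810414N06Rik, and *Casp6* did not pass the test (edgeR adjusted p = 0.0538, 0.198, and 0.0535), and whether any of these genes are regulated together was not tested. *Tnfrsf25* was below 10 counts in some samples and was not searched.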

How the data were processed

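RNA sequencing was performed on 6 samples of mouse CD8+ T cells, 3 TEff and 3 TRM-like, with a stranded total RNA kit. The authors trimmed reads with Cutadapt 4.8, aligned and counted them with Rsubread on GRCm39 (GENCODE M34), and deposited raw counts per gene with gene lengths. The handling of strand and of reads with several matches is not given in the sources used here. The submitters' processing notes name DESeq2 1.40.2. For plots alone, the authors also removed a batch effect whose batches are not named in the sources used here; the deposited counts are uncorrected whole numbers.

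Genes detected (1 count or more) in 3 or more samples were tested with edgeR 4.0.16 (R 4.3.3), using TMM scaling, the quasi-likelihood test, and Benjamini-Hochberg adjustment. CPM used the TMM-scaled library, and RPKM divided it by the deposited gene length. Ratios were compared by exact permutation tests in scipy 1.17.1. Coordinates and sequences came from GRCm39 with GENCODE M39, which held 56620 of the 57126 gene IDs. The alternatives were DESeq2 1.42.0, limma-voom (limma 3.58.1), other scalings and filters, a replicate block, and each sample left out. On simulated counts of 25300 genes for this comparison, with 200 changed 4-fold, edgeR recovered 98.5% of the changed genes, with 6.64% of its calls false. These changes were larger than those of *Icos* and *Tnfrsf1b*, and genes as low as *Tnfrsf25* were not changed. No simulated sample was set apart as TRM-like replicate 3 was, so these rates do not carry over to the members.

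The members and the gene lists (ligands, inhibitory receptors, transducers, NF-κB genes, other receptors, and markers of 6 cell types) were chosen with earlier results of these data known. One marker of the B cell list is not reported here and was left out of its sum. Named genes were the 9 members, up to 3 genes past the threshold by smallest p in each pathway list (or the 1 with the smallest p where none passed), and the 3 genes most like each called member. Between 18319013 and 23622621 reads were counted per sample, and counting intervals cover counting error only.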

Additional observations from a re-analysis of the deposited data

How the results depend on the processing

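The direction of every member was the same in every alternative in which it was tested, and *Icos* kept its call in all of them. The number of all genes past the threshold, 786, was 1256 by DESeq2, 1868 without a filter, 2034 with the replicate block, and 263 to 3579 with 1 sample left out. The number of members called, 3, was 5 by DESeq2, 6 without a filter, 6 with the replicate block, and 1 to 4 with 1 sample left out. The pathway lists had 13 calls, and 20 without a filter, 20 with the replicate block, and 4 to 20 with 1 sample left out. *Cd28* passed the threshold by DESeq2 (log2 fold change -0.60), without a filter (-0.62), with the replicate block (-0.63), and with the block and at least 10 counts in every sample (-0.62). *Tnfrsf4* passed it under the same settings (-1.02, -1.04, -1.06, and -1.05), and *Tnfrsf9* without a filter (0.59) and with the replicate block (0.64). With 1 sample left out, the log2 fold changes ranged from -1.33 to -0.83 for *Tnfrsf4*, from 0.74 to 1.00 for *Tnfrsf1b*, and from -2.49 to -2.09 for *Tnfrsf25*, which was absent from the fits that needed at least 10 counts in every sample. The cause of these changes was not tested. The replicate block added *Cd28*, *Tnfrsf4*, and *Tnfrsf9* to the members called. In that fit and in the one without a filter, edgeR's prior degrees of freedom were infinite, against 4.97 in the main fit. Variances in those 2 fits thus came from the trend over genes and not gene by gene. With the block and at least 10 counts in every sample, the prior degrees of freedom were 8.30, and 4 members were called. The study's methods describe a batch correction for plots without naming the batches, the labels give a replicate number only, and whether the numbers mark those batches is not given in the sources used here, so that a batch could not be fitted as such. The deviations of same-numbered samples correlated at -0.292, 0.309, and 0.389 over 14822 genes, while the highest correlation, 0.519, was between TEff replicate 2 and TRM-like replicate 1, so that not every sample correlated best with its own number. *Tnfrsf25* had the fewest counts of the members, 3 to 22 per sample, so that its fold change is the least precise of the 9.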
